A study of Arabidopsis thaliana with 12 samples.

Results

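The change of transcripts from explant to callus was compared between petals and cotyledons of Arabidopsis thaliana. All plants were of the Ler ecotype (Landsberg erecta). Explants were cut and either sampled at day 0 or kept for 10 days on an auxin-rich medium that induces callus (CIM), and each 2-colour oligonucleotide array carried the callus and the day-0 explant of 1 organ. The comparison used the 8 arrays labelled as petal- or cotyledon-derived callus out of 12 in the series, with 4 biologically independent samples per organ. No array carried both organs. Each gene therefore had a log2 ratio of callus over explant in each organ, and the contrast given below is the petal ratio minus the cotyledon ratio, on the log2 scale. A contrast can come from the callus of either organ or from its day-0 explant, and these cannot be told apart.

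Callus on auxin-rich medium is a mass of dividing cells, and the title of the study places its formation in a root development pathway. Petals are floral organs with little photosynthesis that age soon after flowering. Cotyledons are the first leaves of the seedling, which store reserves and then photosynthesise. In such bulk tissue, fewer cells of a type and less RNA per cell cannot be told apart. The files hold ratios and no levels, so the organ labels could not be checked against the levels of marker genes.

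Callus over explant is the likely direction of the ratios, since the labels name callus as the first channel and day-0 tissue as the control. If the table was stored as explant over callus, all signs given here turn. Values stopped at a size of 6.64, the log2 of a ratio of 100, and values at this limit were counted as missing. A gene needed at least 3 measured values in both organs, which left 9915 of 13745 genes named on the arrays, 9210 of them measured on all 8 arrays. Of the 3830 genes not tested, 1190 had too few values in petal alone, 203 in cotyledon alone and 2437 in both.

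Arrays of the same organ resembled each other more than arrays of different organs. Across the 9210 genes, Pearson's r was 0.85 to 0.92 between petal arrays, 0.85 to 0.94 between cotyledon arrays and 0.62 to 0.71 between a petal and a cotyledon array. With values at the limit included, the deposited medians were -0.74, -0.64, -0.16 and -0.14 for petal replicates 1 to 4 and -0.30, -0.35, 0.29 and -0.32 for cotyledon replicates 1 to 4. The share of probes at a limit was 24.1%, 28.2%, 2.00% and 8.47% on the petal arrays and 1.99%, 19.3%, 6.20% and 18.4% on the cotyledon arrays. Across the 9210 genes, the SD of ratios was 1.58 to 1.89 on the petal arrays and 1.39 to 1.53 on the cotyledon arrays, which did not overlap. The mean difference of 0.30 had an exact 2-sided permutation p of 0.0286, the smallest that 70 splits of 8 arrays can give, and 0.0857 after adjustment over 3 such measures. Over all values measured on each array the difference was 0.26 with an exact permutation p of 0.0857.

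**Figure D1:**
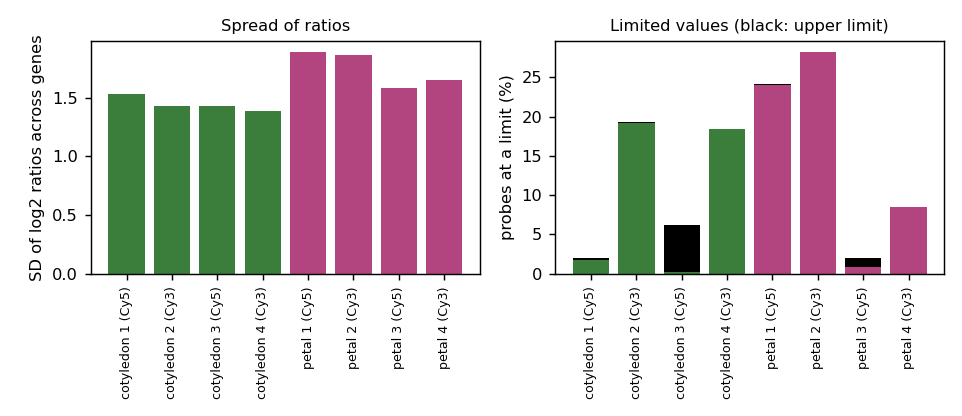
SD of log2 ratios of callus over explant across the 9210 genes measured on all 8 arrays (left) and share of probes at the lower (coloured) or upper (black) limit in percent (right), 1 bar per array, with the dye of the callus in brackets. The 4 petal arrays (magenta) lie between 1.58 and 1.89 and the 4 cotyledon arrays (green) between 1.39 and 1.53, while limited values run from 2.00% to 28.2% on the petal arrays and from 1.99% to 19.3% on the cotyledon arrays.

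Nearly every second gene tested responded differently in the 2 organs. Of 9915 genes, 4645 (46.8%) had a contrast with an adjusted p under 0.05 in limma's moderated test with Benjamini-Hochberg adjustment. The petal ratio was above the cotyledon ratio in 2846 of them (28.7% of genes tested) and below it in 1799 (18.1%). The median contrast over all genes was 0.17. It moved to 0.42 with arrays centred on all deposited values and to 0.05 with arrays scaled to a common spread. Contrasts near these values therefore depend on centring and scale. With limited values kept, the median contrast was -0.17, over 13509 genes in place of 9915. The number lower in petal was 1063 with arrays centred on all deposited values, which makes 68.1% of the calls higher in place of 61.3%.

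The wide contrasts lay mostly on the lower side. Among called genes with a contrast of at least 1 in size, 1312 were higher and 1201 lower in petal. Among those of at least 3 in size, 91 were higher and 261 lower (74.1% lower). Of 9210 genes measured on all 8 arrays, the 4 petal values lay wholly above the 4 cotyledon values in 2525 (27.4%) and wholly below in 1558 (16.9%), together 44.3%.

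More genes were called in the same direction in both organs than in opposite directions, and most of those with a shared direction did not pass the test of the difference. The organ ratios correlated across the 9915 genes with r = 0.71 and rho = 0.71, values that describe these arrays, since genes are not independent replicates. In petal alone 7680 genes (77.5%) passed the test against a ratio of 0, with 4347 (43.8%) raised and 3333 (33.6%) lowered, against 6876 (69.3%) in cotyledon, with 3877 (39.1%) raised and 2999 (30.2%) lowered. Of 3168 genes raised in both organs, 1197 were raised further in petal, 171 less in petal, and 1800 did not pass the test of the difference. These 1197 and 171 genes were 12.1% and 1.72% of all genes tested, and with each array scaled to a common median absolute deviation the shares were 4.61% and 3.32%. The smaller share was 1.13% without petal replicate 2, 1.05% without petal replicate 4 and 1.11% without cotyledon replicate 2. Of 2205 genes lowered in both, 482 were lowered further in petal, 435 less, and 1288 did not pass the test of the difference.

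A smaller group moved in opposite directions. Of the 4645 called genes, 257 were raised in petal callus and lowered in cotyledon callus, and 294 were lowered in petal callus and raised in cotyledon callus. On every one of the 8 arrays, 298 genes lay above 0 in petal and below 0 in cotyledon and 359 the other way round, together 7.13% of the genes measured on all arrays.

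**Figure D2:**
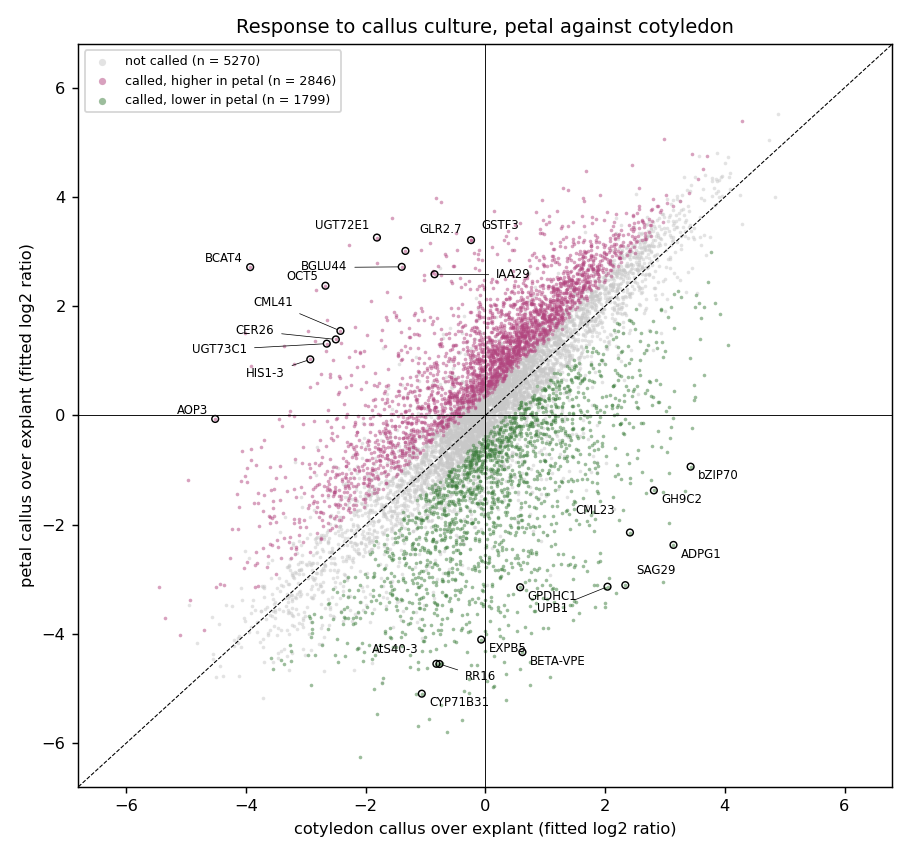
Fitted log2 ratio of callus over explant in cotyledon (horizontal axis) and petal (vertical axis) for 9915 genes, with the dashed line at equal ratios. Magenta points (2846) are genes with a higher ratio in petal and green points (1799) genes with a lower ratio, at an adjusted p under 0.05, and circles mark, among genes with a symbol that were measured on all 8 arrays without overlap of the organs, the 12 with the highest and the 12 with the lowest called contrast.

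The widest contrast of all was that of BCAT4 (AT3G19710), the aminotransferase that starts the chain elongation of methionine for glucosinolates, the mustard oil precursors of the cabbage family. Its ratios were 3.46, 1.71, 3.31 and 2.37 on petal arrays 1 to 4 and -3.66, -4.52, -3.81 and -3.72 on cotyledon arrays 1 to 4. Every petal array was above 0 and every cotyledon array below it. The contrast was 6.64 (95% interval 5.97 to 7.32, limma adjusted p = 3.8e-05), a ratio of ratios of 100.1.

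Of 4 glucosinolate genes tested (58 annotated), 3 were higher in petal and 1 lower, beside 28.7% and 18.1% of all genes. Their median contrast was 3.65 beside 0.17 over all genes. AOP3 (AT4G03050), a dioxygenase that modifies the glucosinolate side chain, measured 0.28, -0.69, -0.19 and 0.33 in petal and -3.58, -5.63, -3.97 and -4.87 in cotyledon. Petal values lay around 0 and cotyledon values far below it. UGT74B1 (AT1G24100), which adds the glucose of the glucosinolate core, had a contrast of 2.86 (interval 2.31 to 3.40), with 1.74 ± 0.48 (SD, n = 4) in petal and -1.12 ± 0.25 (n = 4) in cotyledon. AOP1 (AT4G03070), a relative of AOP3 at the same locus, went the other way: it was lowered in both organs, to -3.91 ± 0.50 in petal and -2.90 ± 0.42 in cotyledon (contrast -1.01, interval -1.76 to -0.26, limma adjusted p = 0.0361). The call of AOP1 was lost under 15 of 24 alternative settings, among them each in which 1 array other than replicate 3 was left out.

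Further genes at the upper end mostly crossed 0 between the organs. UGT72E1 (AT3G50740), a glycosyltransferase acting on monolignol precursors, measured 3.67, 2.96, 3.71 and 2.68 in petal and -1.82, -1.89, -1.76 and -1.77 in cotyledon, a contrast of 5.07 (4.60 to 5.53). OCT5 (AT1G79410), of the organic cation and carnitine transporter family, measured 2.77, 2.41, 2.45 and 1.87 in petal and -2.72, -2.90, -2.51 and -2.56 in cotyledon, a contrast of 5.05 (4.61 to 5.48). Both genes were raised on all petal arrays and lowered on all cotyledon arrays, and their cotyledon values differed little between replicates. CER26 (AT4G13840), needed for the elongation of very long chains in leaf wax, measured 1.42, 1.11, 1.77 and 1.26 in petal and -2.37, -2.42, -2.54 and -2.65 in cotyledon. GLR2.7 (AT2G29120), a glutamate receptor-like channel, measured 3.48, 2.90, 3.28 and 2.38 in petal and -1.79, -1.97, -1.14 and -0.45 in cotyledon. Neither gene had overlapping groups, with contrasts of 3.89 and 4.35.

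BGLU44 (AT3G18080), a glycoside hydrolase, had a contrast of 4.12, and CML41 (AT3G50770), a calmodulin-like calcium sensor, one of 3.97. UGT73C1 (AT2G36750), a family 1 glycosyltransferase, had a contrast of 3.96. In HIS1-3 (AT2G18050), a drought-induced linker histone, petal replicate 3 lay below 0 at -0.30 while the others measured 1.05, 1.72 and 1.63. Its cotyledon values of -2.53, -3.04, -3.14 and -2.99 were all lower still, and the contrast was 3.95 (2.98 to 4.92). GSTF3 (AT2G02930), a phi glutathione transferase, was raised on all petal arrays (3.77, 3.18, 3.01 and 2.87) and split in cotyledon (-1.31, -1.12, 0.83 and 0.63), which gave a contrast of 3.45. CES (AT1G25330), a bHLH regulator of brassinosteroid synthesis, had a contrast of 5.40 with a wide interval, 3.17 to 7.63. It rested on 3 cotyledon values (-0.51, -4.42 and -2.38), and its call was lost when limited values were kept.

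**Figure D3:**
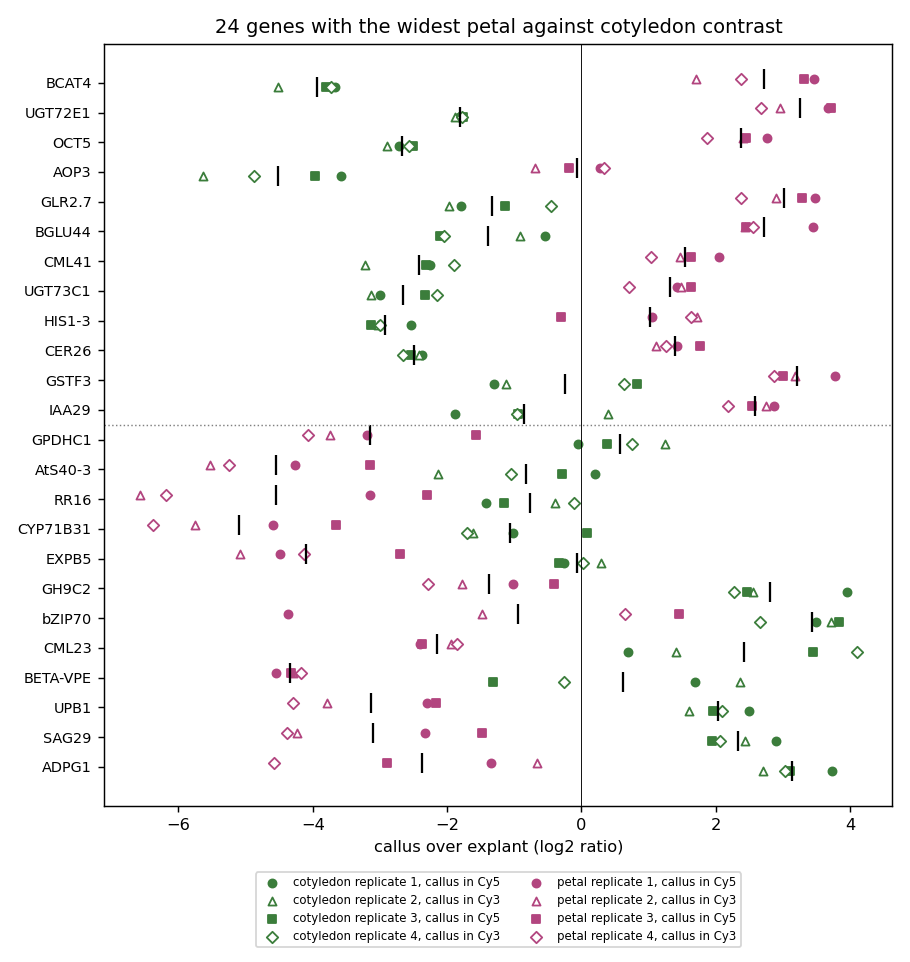
Log2 ratio of callus over explant on each array for the 12 genes with the highest and the 12 with the lowest called contrast, among genes with a symbol measured on all 8 arrays without overlap (dotted line between them). Symbols give the replicate, filled for callus in Cy5 and open for callus in Cy3, and black ticks give the fitted ratio of petal (magenta) and cotyledon (green). The groups do not overlap in any of these genes, because that was part of the rule that chose them.

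At the lower end stood ADPG1 (AT3G57510), a polygalacturonase of cell separation in pods and anthers. It measured -1.35, -0.67, -2.90 and -4.58 in petal and 3.74, 2.70, 3.10 and 3.03 in cotyledon. All cotyledon arrays were closely raised, whereas the petal values were all below 0 and scattered. The contrast was -5.51 (-7.43 to -3.60, limma adjusted p = 0.00188).

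SAG29 (AT5G13170), the senescence-associated sugar carrier also named SWEET15, measured -2.32, -4.24, -1.49 and -4.38 in petal and 2.90, 2.44, 1.95 and 2.06 in cotyledon (contrast -5.45, interval -6.63 to -4.26). UPB1 (AT2G47270), a bHLH factor that sets the passage from proliferation to differentiation in the root through peroxidases, measured -2.30, -3.79, -2.16 and -4.29 in petal and 2.50, 1.60, 1.96 and 2.10 in cotyledon (contrast -5.18, interval -5.97 to -4.39). In both genes the 2 organs lay on opposite sides of 0 on every array, and the 2 petal arrays with callus in Cy3 (replicates 2 and 4) were the lowest. With petal replicates 1 and 2 left out, the arrays with the most limited values, both calls held. BETA-VPE (AT1G62710), a vacuolar processing protease, measured -4.54, -4.29, -4.33 and -4.17 in petal, while cotyledon values ran on both sides of 0 (1.69, 2.36, -1.32 and -0.26). Petal arrays lay close together and cotyledon arrays far apart, and the contrast was -4.95 (-6.78 to -3.13).

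CML23 (AT1G66400), another calcium sensor of the calmodulin-like family, measured -2.40, -1.95, -2.38 and -1.85 in petal and 0.70, 1.41, 3.45 and 4.10 in cotyledon. The cotyledon values spread over more than 3 units and still stayed above all petal values (contrast -4.56, interval -6.29 to -2.83). bZIP70 (AT5G60830), a bZIP transcription factor, measured -4.37, -1.48, 1.45 and 0.65 in petal and 3.49, 3.72, 3.84 and 2.65 in cotyledon. Its petal replicates disagreed in sign, and the contrast of -4.37 lost its call with limited values kept, without petal replicate 2 (-4.09) and without cotyledon replicate 1 (-4.29), 2 (-4.31) or 3 (-4.14). GPDHC1 (AT2G41540), a cytosolic glycerol-3-phosphate dehydrogenase, had a contrast of -3.73, and CYP71B31 (AT3G53300), a cytochrome P450, one of -4.03. WAG2 (AT3G14370), a kinase acting on PIN auxin carriers, was lowered on all petal arrays (-1.99, -1.00, -0.45 and -1.50) and raised on all cotyledon arrays (2.90, 2.47, 2.13 and 2.18), with a contrast of -3.66 (-4.50 to -2.81).

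Of 13 auxin response genes tested, 4 were higher in petal, 2 were lower and 7 did not pass, shares near the 28.7% higher and 18.1% lower among all genes. The median contrast was 0.32 beside 0.17 over all genes. IAA29 (AT4G32280), of the Aux/IAA family of auxin signalling repressors, measured 2.87, 2.74, 2.54 and 2.19 in petal and -1.89, 0.39, -0.94 and -0.97 in cotyledon, a contrast of 3.43 (2.41 to 4.46). Further Aux/IAA genes higher in petal were IAA33 (1.84) and IAA15 (1.42), both raised in petal and near 0 in cotyledon. SAUR4, of the small auxin-up RNAs, had a contrast of 2.73 over 4 petal and 3 cotyledon values.

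GH3.17 (AT1G28130), an enzyme that conjugates auxin to glutamate, went the other way: it measured -0.51, -1.07, -0.66 and -0.58 in petal and 3.21, 2.42, 1.97 and 1.86 in cotyledon (contrast -3.07, interval -3.77 to -2.38). SAUR10 was lowered in both organs and further in petal (-2.66 ± 0.90 and -0.59 ± 0.40, contrast -2.07). Other GH3 genes and LBD16, the lateral root regulator of auxin-grown callus, were raised in both organs without a called difference: LBD16 measured 3.27 ± 0.61 in petal and 3.47 ± 0.95 in cotyledon (contrast -0.20, interval -1.01 to 0.61). GH3.3 and GH3.1 had contrasts of 0.32 (-0.44 to 1.07) and 0.16 (-0.37 to 0.68).

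Among 4 regulators of root meristems tested (58 annotated), UPB1 and CR4 were lower in petal, beside 18.1% of all genes, and 2 were not called. CR4 (AT3G59420), the receptor kinase ACR4 of root cap and lateral root divisions, was at -0.77 ± 0.17 in petal and 0.01 ± 0.40 in cotyledon (contrast -0.78, interval -1.20 to -0.36). That call was lost without petal replicates 1 and 2 and with arrays centred on all deposited values. BBM, an AP2 factor of root stem cells and embryos, was raised in both organs, with 3.67 ± 0.86 in petal and 3.18 ± 0.92 in cotyledon (contrast 0.48, interval -0.32 to 1.29). JKD, a zinc finger factor of the root ground tissue, had a contrast of -0.40 (-0.91 to 0.10).

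Of 3 cytokinin response genes tested (68 annotated), 1 was lower in petal and 0 higher, beside 18.1% and 28.7% of all genes. RR21 (-2.57) and RR22 (-0.21) were not called. RR16 (AT2G40670), a response regulator, was lower in petal and measured -3.15, -6.57, -2.30 and -6.19 in petal and -1.41, -0.40, -1.15 and -0.10 in cotyledon. Petal values with callus in Cy3 (replicates 2 and 4) were more than 3 units below those with callus in Cy5. The contrast of -3.78 (-5.94 to -1.63, limma adjusted p = 0.0133) had an adjusted p of 0.0749 without petal replicates 1 and 2 and ran from -6.13 to -1.44 over all settings.

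The 3 genes of DNA synthesis tested, out of 51 annotated, were raised in both organs and further in petal. Over all genes, 28.7% were called higher in petal and 18.1% lower. All 3 tested were called, ICU2 (the catalytic subunit of DNA polymerase alpha; contrast 1.13), POLD3 (a DNA polymerase delta subunit; 0.97) and PRL (the MCM7 helicase subunit; 0.76), with median ratios of 3.17 in petal and 2.27 in cotyledon. Scaled to a common median absolute deviation, only POLD3 remained called, and PRL lost its call under 15 of 24 settings, including without any 1 of petal replicates 1, 2 and 3 or cotyledon replicates 1, 3 and 4 (0.56 to 0.84). ICU2 measured 3.97, 2.79, 4.01 and 2.79 in petal, with the arrays of each callus dye close together, and 2.20, 2.25, 2.31 and 2.31 in cotyledon. Of 4 core histone genes, 1 was called (HTB2, contrast 0.61). Its contrast turned to -0.12 with a common spread, and the call was lost without any 1 of petal replicates 1, 2 and 4 or cotyledon replicates 2, 3 and 4 (0.45 to 0.67).

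Mitosis genes were mostly not called. Of 11 tested, 9 did not pass, 0 were higher and 2 were lower in petal. Over all genes 28.7% were higher and 18.1% lower, so the lower share was near that of all genes. The median contrast was 0.28 beside 0.17 over all genes. Both lower genes were Aurora kinases. AUR1 (AT4G32830) measured 0.20, 0.39, -0.04 and 0.78 in petal and 2.43, 1.94, 1.71 and 1.72 in cotyledon (contrast -1.62, interval -2.18 to -1.05, limma adjusted p = 0.00194). AUR2 (AT2G25880) measured 0.03, 0.77, -0.47 and 1.02 in petal and 3.56, 2.61, 2.47 and 2.55 in cotyledon (contrast -2.46, interval -3.38 to -1.55). These 2 kinases of the spindle and the cell plate stayed near 0 in petal callus and were raised on all cotyledon arrays.

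AUR3, the Aurora kinase of centromeres, was raised in both organs, with 2.13 ± 0.15 in petal and 1.89 ± 0.23 in cotyledon (contrast 0.24, interval -0.13 to 0.60). The checkpoint genes BUBR1 (4.36 ± 0.29 and 4.08 ± 0.48), BUB3.2 (3.37 ± 0.32 and 3.33 ± 0.12) and the histone kinase Haspin (4.31 ± 0.51 and 3.90 ± 0.52) were also raised in both, with intervals of the contrast that held 0. The calls of AUR1 and AUR2 held under all 24 alternative settings.

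**Figure D4:**
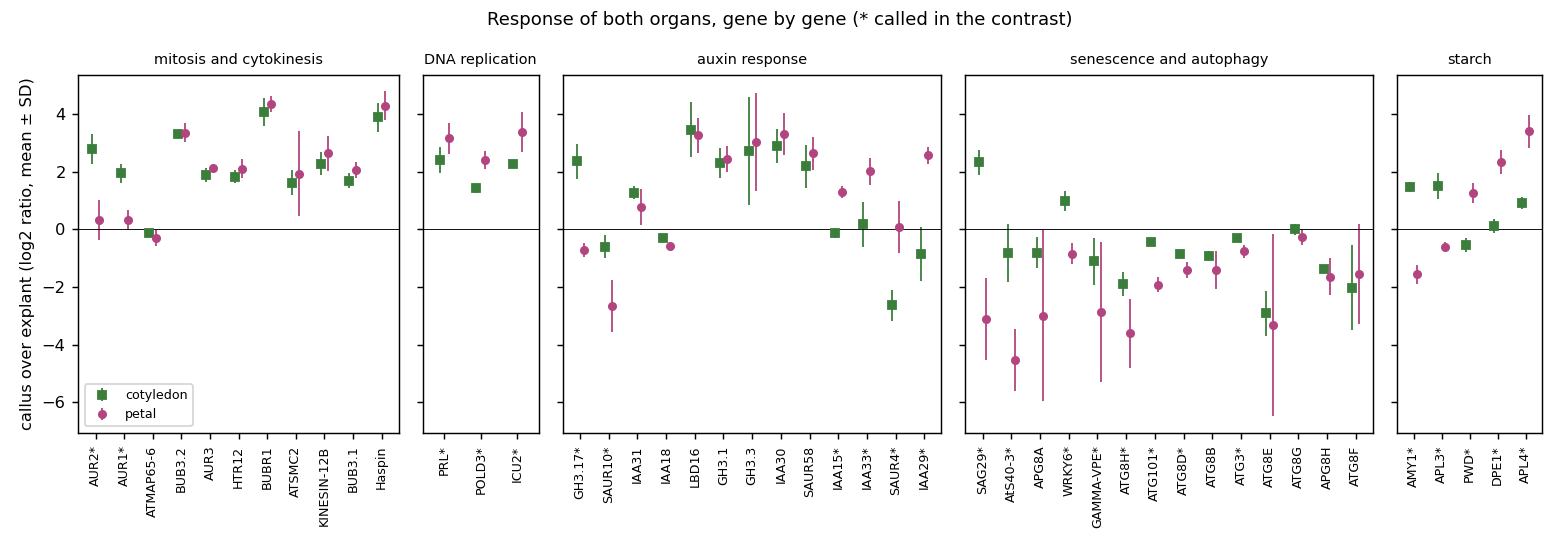
Mean log2 ratio of callus over explant ± SD (3 or 4 arrays) in cotyledon (green squares) and petal (magenta circles) for each tested gene of 5 lists, ordered by contrast, with a star at genes called in the contrast. AUR1 and AUR2 are near 0 in petal and at 1.95 and 2.80 in cotyledon, while most other mitosis genes stand side by side.

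Photosynthesis genes had low ratios in both organs, and few contrasts passed. Of 8 genes of light harvesting and the photosystems tested (78 annotated), 1 was lower in petal and 0 higher. The other 7 did not pass, with contrasts of -0.43 to 0.14 and 95% intervals that together ran from -1.00 to 0.82. The list medians were -3.36 in petal and -3.16 in cotyledon. Among the 19 annotated Calvin cycle genes 3 were tested (SBPASE, PRK and RCA), with 0 called in limma and contrasts of -0.43 to -0.10. Over all genes, 28.7% were called higher in petal and 18.1% lower. With a common spread, 3 of the 8 and 1 of the 3 were called higher in petal. The exception was LHCB4.3 (AT2G40100), a minor antenna protein, which measured -3.41, -3.03, -2.77 and -2.54 in petal and 0.13, 1.24, -0.18 and -0.17 in cotyledon (contrast -3.19, interval -3.97 to -2.41). It was lowered on every petal array and close to 0 on 3 cotyledon arrays.

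Of 7 chlorophyll synthesis genes tested (26 annotated), 3 were higher in petal and 0 lower, beside 28.7% and 18.1% of all genes. Their median contrast was 0.08 beside 0.17 over all genes. All 3 higher genes act in the early steps that haem synthesis shares. GSA1, which forms aminolevulinate, was at 0.09 ± 0.21 in petal and -0.72 ± 0.24 in cotyledon (contrast 0.81). HEMB1, the next enzyme, was at -0.52 ± 0.33 and -1.57 ± 0.36 (contrast 1.05), and HEME1, a uroporphyrinogen decarboxylase, had a contrast of 0.71. HEME2, a relative of HEME1, had a contrast of -0.15. Of the chlorophyll branch itself, CHLM at 0.08 (-0.69 to 0.85), PORB at -0.10 (-0.79 to 0.59) and CHLI2 at -0.72 (limma adjusted p = 0.0916) were not called, although 1 of the list was lower without petal replicate 3.

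All 5 starch genes tested, out of 48 annotated, were called, 3 higher and 2 lower in petal, beside 28.7% and 18.1% of all genes. APL4 (AT2G21590), a large subunit of ADP-glucose pyrophosphorylase, the first step of starch synthesis, measured 4.11, 3.14, 3.64 and 2.79 in petal and 0.95, 1.19, 0.71 and 0.82 in cotyledon (contrast 2.50). APL3 (AT4G39210), another large subunit of the same enzyme, had the opposite contrast of -2.13, with -0.66, -0.49, -0.85 and -0.49 in petal and 1.10, 2.13, 1.33 and 1.48 in cotyledon. The 2 subunit genes thus differed in which organ's callus held the higher ratio. Of the breakdown enzymes, DPE1, the plastid disproportionating enzyme (2.21), and PWD, phosphoglucan water dikinase (1.81), were higher in petal. AMY1 (AT4G25000), an alpha-amylase, was lower, with -1.88, -1.50, -1.76 and -1.11 in petal and 1.31, 1.33, 1.60 and 1.67 in cotyledon (contrast -3.04, interval -3.46 to -2.62).

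Sugar transport and cleavage genes were mostly lowered in both organs, with medians of -2.52 in petal and -1.83 in cotyledon. Of 15 tested, 6 were lower in petal and 1 higher, beside 28.7% of all genes higher and 18.1% lower. SWEET1 (AT1G21460), a glucose carrier, measured -0.78, -2.98, -1.17 and -3.52 in petal and 1.29, 1.30, 0.99 and 0.99 in cotyledon (contrast -3.25). SWEET17, a vacuolar fructose carrier, was higher (1.73), at -0.52 ± 0.69 in petal and -2.25 ± 0.17 in cotyledon. Without petal replicate 2 the list held 3 lower calls, and 2 without petal replicates 1 and 2. Without petal replicate 1 it held 4 higher calls. With a common spread, 6 genes of the list were called higher.

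Among wall-loosening genes, 10 of 19 expansins were lower in petal and 2 higher, beside 28.7% of all genes higher and 18.1% lower. Their median contrast was -1.08, and over the alternative settings with both dyes 6 to 11 were lower, 6 of them without cotyledon replicate 3. EXPB5 (AT3G60570), a beta-expansin, measured -4.50, -5.08, -2.71 and -4.14 in petal and -0.26, 0.29, -0.34 and 0.02 in cotyledon (contrast -4.03). EXPA8, an alpha-expansin, followed with -3.39. Both stayed within 2 units of 0 in cotyledon and were far lower in petal. EXPA4 and EXPA15 were raised in both organs and less in petal (contrasts -2.06 and -2.36). EXLB1 (AT4G17030), an expansin-like gene, went the other way with 3.29, and EXPA16 with 1.19.

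GH9 endoglucanases, which act on cellulose and related glucans and were taken up after their values were seen, had 6 lower and 2 higher of 12 tested, with the same shares over all genes as above, and a median contrast of -1.51. GH9C2 (AT1G64390) measured -1.02, -1.78, -0.40 and -2.29 in petal and 3.96, 2.56, 2.47 and 2.27 in cotyledon (contrast -4.19, interval -5.02 to -3.36). GH9B6 and GH9B7 were the higher ones (1.09 and 0.61), and neither was called with a common spread. GH9B7 lost its call without any 1 array other than petal replicate 1 (0.45 to 0.68). Without petal replicates 1 and 2, 3 members were lower. Of 7 xyloglucan enzymes, 3 were higher (XTH19 1.78, EXGT-A3 1.41 and XTH32 1.39) and 2 lower (XTH29 -3.72 and XTH33 -1.97), so 1 family had members on both sides. The call of XTH19 was lost without petal replicate 1, 2 or 3 or cotyledon replicate 2 (1.65 to 1.74). TBL genes, of a family that acetylates wall polysaccharides and that was also chosen with its values seen, had 6 of 14 lower and 1 higher, from TBL39 at -3.20 to TBL37 at 2.25.

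Senescence and autophagy genes, which take part in recycling cell contents, were called in 1 direction. Of 14 tested, 8 were lower in petal and 0 higher, beside 28.7% of all genes higher and 18.1% lower, with a median contrast of -1.03 and median ratios of -1.78 in petal and -0.83 in cotyledon. SAG29 (-5.45), described above, counts both here and in the list of sugar transport. AtS40-3 (AT4G18980), a senescence regulator, measured -4.26, -5.53, -3.15 and -5.25 in petal and 0.21, -2.14, -0.29 and -1.05 in cotyledon (contrast -3.73). WRKY6 (AT1G62300), a senescence-associated transcription factor, measured -0.93, -1.24, -0.34 and -0.83 in petal and 1.30, 0.53, 1.22 and 0.95 in cotyledon (contrast -1.84). WRKY6 was below 0 on all petal arrays and above 0 on all cotyledon arrays. Autophagy genes had smaller contrasts, -1.72 for ATG8H, -1.50 for ATG101, -0.56 for ATG8D and -0.46 for ATG3. GAMMA-VPE values followed the dye in both organs (-0.77, -4.76, -0.78 and -5.21 in petal), and its call was lost under 13 settings. Without any 1 array other than petal replicate 3, 4 or 5 of the 14 were lower, and 4 were lower with limited values kept or with a common spread.

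Floral organ and MADS genes included 24 tested, 7 lower and 3 higher in petal, beside 28.7% of all genes higher and 18.1% lower. The median contrast was -0.33. BPEp (AT1G59640), a bHLH factor that limits petal size, was at -3.94 ± 1.40 in petal and -0.41 ± 0.33 in cotyledon (contrast -3.53, interval -4.92 to -2.14). AGL24 (AT4G24540), a promoter of flowering, had a contrast of -4.30 over 3 values in each organ, and 8 settings lost the call, among them those without petal replicate 4 or cotyledon replicate 1, 2 or 3 (-4.53 to -4.16). AGL66 (AT1G77980) measured -0.96 in petal replicate 4 and -3.75 to -2.997 in the other petal replicates, and 1.16, 0.81, 0.25 and 1.05 in cotyledon (contrast -3.63), and AGL29 (AT2G34440) had a contrast of -3.14. AGL66 and AGL29 are known from pollen, and pollen markers moved with them: of 9 tested out of 66 annotated, 5 were lower in petal and 1 (AGL65, 0.71) higher, a call lost without any 1 of petal replicates 1 and 2 and the 4 cotyledon arrays. The median ratio of these 9 was -3.53 to -1.80 on the petal arrays and -1.36 to -0.65 on the cotyledon arrays. RALFL25 (contrast -3.16), ANX1 (-2.66) and TUA1 (-0.76) were the pollen markers outside the MADS family that were called lower. The anther gene SPL (-1.46) and the trichome gene TRY (-2.39) were lower too. Each was the only 1 tested of its marker list, with 26 tapetum and anther and 23 guard cell and trichome genes annotated. Single genes do not stand for a cell type. The part of pollen, anther and surface cells of the explants in these contrasts was not tested.

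AGL102 (1.37), AGL26 (1.07) and AGL65 were the MADS genes called higher. Of the leaf polarity genes, PHV was called at the threshold (contrast 0.46, limma adjusted p = 0.04998) and lost the call under 18 of 24 settings, with every single array left out but cotyledon replicate 1 (0.36 to 0.54), and YAB3 had a contrast of -0.26 (-1.30 to 0.79).

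Defence genes were not called: of 6 tested, 0 passed in limma, with contrasts of -0.77 (OSM34) to 0.52 (PDF1.3), although 2 were lower with a common spread, 1 was lower without petal replicate 2 and 1 was higher without cotyledon replicate 1. At an unadjusted p under 0.05 in limma, 5371 of all genes passed beside the 4645 called. The counts of this paragraph stand beside 28.7% of all genes called higher in petal and 18.1% lower. The jasmonate and flavonoid shares below are near these. In the jasmonate list 1 of 4 was higher, MYC4 (1.21 with 1.24 ± 0.32 in petal and 0.03 ± 0.24 in cotyledon). Of 5 flavonoid genes only UGT80B1 was called (-1.12), a sterol glucosyltransferase known from seed coat mutants. SHN2, an AP2 factor of the cuticle, was called at 0.61.

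**Figure D5:**
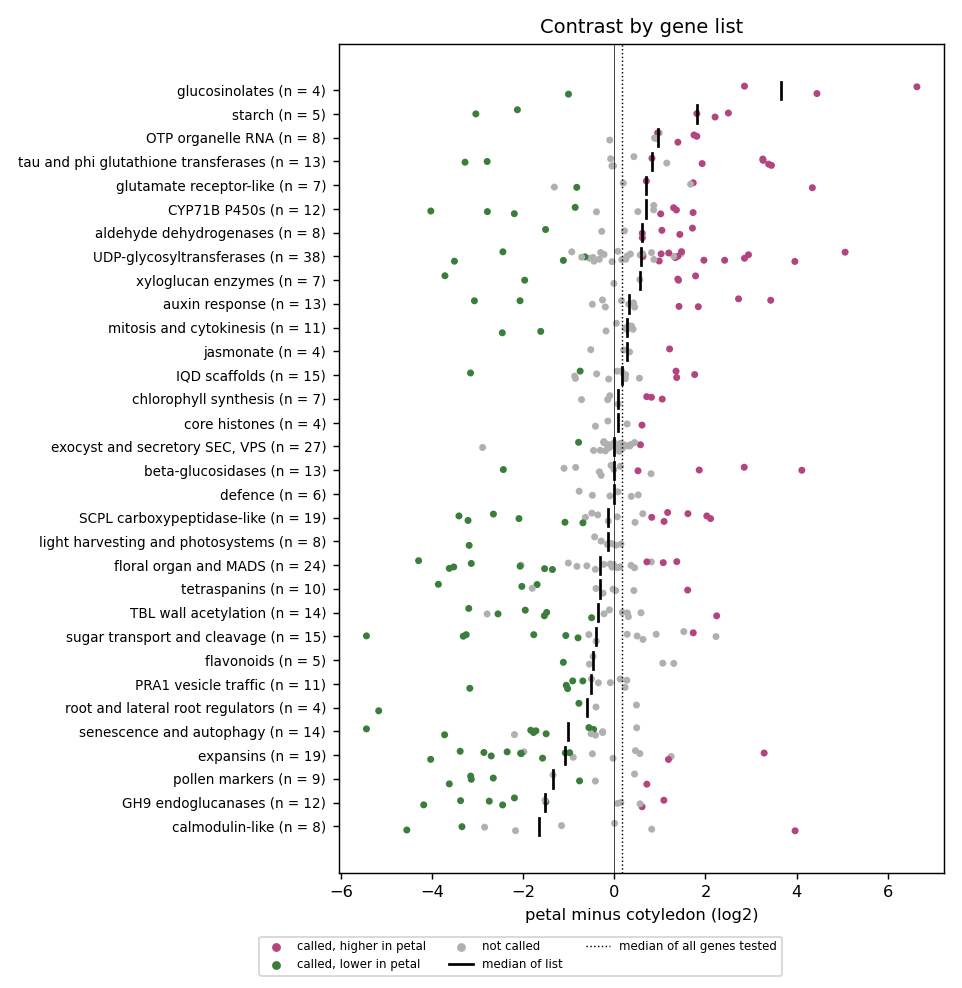
Contrast (petal minus cotyledon, log2) of each tested gene in the lists and families with at least 4 tested members, ordered by the list median (black bar), with called genes in magenta (higher) and green (lower) and other genes in grey. The dotted line is the median of all genes tested, 0.17, and list medians run from -1.67 for calmodulin-like genes to 3.65 for the 4 glucosinolate genes.

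The families that follow were taken up after their values were seen, and their counts stand beside 28.7% of all genes higher and 18.1% lower. Of 38 UDP-glycosyltransferases, 14 were higher and 4 lower (median 0.59). UGT71D1 (AT2G29730) was the lowest, with -2.45, -2.56, -2.16 and -2.24 in petal and 1.23, 1.75, 0.59 and 1.07 in cotyledon (contrast -3.51). Of 13 tau and phi glutathione transferases, 6 were higher and 2 lower. GSTU20 (AT1G78370) was near 0 in petal (-0.07 ± 0.38) and lowered in cotyledon (-3.45 ± 0.30), a contrast of 3.39. GSTU26 (-3.28) and GSTF4 (-2.79) were lowered in petal and raised in cotyledon. Among 12 CYP71B genes, 4 were higher and 4 lower. The lower CYP71B genes numbered 2 without petal replicate 1 or cotyledon replicate 1, 2 or 4, the higher ones 2 without petal replicate 4, and the lower glycosyltransferases 2 without petal replicate 1 or cotyledon replicate 2.

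OTP genes, pentatricopeptide proteins that edit or process organelle RNA, had 4 of 8 higher and 0 lower, with a median contrast of 0.97. OTP84 measured -0.18, 0.20, 0.07 and 0.40 in petal and -1.93, -1.61, -1.90 and -1.33 in cotyledon (contrast 1.81), and OTP85, OTP81 and OTP87 had contrasts of 1.75, 1.39 and 0.95. OTP84 and OTP85 were near 0 in petal and lowered in cotyledon, whereas OTP81 and OTP87 were raised in petal and near 0 in cotyledon. PRA1 genes of vesicle traffic had 5 of 11 lower and 0 higher. PRA1.B5 (AT5G01640) stood out with -0.01, 0.79, 0.49 and 0.04 in petal and 3.77, 4.56, 2.64 and 3.04 in cotyledon (contrast -3.18). The other called PRA1 genes had contrasts of -1.06 to -0.69, and without cotyledon replicate 1 the lower ones numbered 3.

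Serine carboxypeptidase-like genes were divided evenly, 6 higher and 6 lower of 19, from scpl48 at -3.41 to scpl50 at 2.11. Of 8 calmodulin-like genes, CML41 was higher, CML23 and CML38 lower (-4.56 and -3.35) and 5 not called, while without petal replicate 3 the lower ones numbered 4. Glutamate receptor-like genes had 3 of 7 higher and GLR2.2 lower (-0.83), aldehyde dehydrogenases 5 of 8 higher and ALDH3F1 lower (-1.51; 3 higher without cotyledon replicate 3 and 2 without cotyledon replicate 4), and beta-glucosidases 4 of 13 higher and BGLU33 lower (-2.44). Tetraspanins had 3 of 10 lower, led by TET13 at -3.87 over 3 petal values, and TET10 higher (1.61). IQD scaffold genes had 3 of 15 higher and 2 lower, among them IQD19 (AT4G14750), which was lowered on all petal arrays (-2.77, -2.72, -2.12 and -2.87) and raised on all cotyledon arrays (0.18, 0.74, 0.61 and 0.63). SEC and VPS genes of the secretory pathway were mostly not called, with 25 of 27 outside the threshold.

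Genes at a limit have no ratio. Among 13534 genes with a single probe, 55 were at the lower limit on all 4 petal arrays and 7 on all 4 cotyledon arrays, and 0 were at the upper limit on all arrays of either organ. Of the 55, 2 had at least 3 measured values in cotyledon. The named one, AGL67 (AT1G77950), measured -0.79, -2.78 and 0.88 on 3 cotyledon arrays.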

How the data were processed

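Total RNA was amplified with T7 polymerase and coupled to dyes, per the labels' protocols. The dyes were swapped, with callus in Cy3 in replicates 2 and 4 and in Cy5 otherwise. The authors deposited 1 table of log2 ratios. The sources used here do not give its scanner, background correction, normalization, centring or filters. Control spots (450) were left out. Of 26090 probes, 24926 held values, and 13960 were paired with 1 gene, 0 with several and 12130 with none. Of the named probes 13912 matched the RefSeq table of assembly TAIR10.1 and 48 did not, and 1229 tested genes had a symbol. Probes of 1 gene (189 genes) were averaged, and in 0 of them did probes oppose by over 0.5 each way. Values of 6.64 or more in size (13.6%) were treated as missing.

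The fit used limma 3.58.1 (R 4.3.3) with 1 coefficient per organ and a dye term, and the contrast was tested 2-sided with Benjamini-Hochberg adjustment over 9915 genes at 0.05. The script was tested on simulated data. The dye term passed in 122 genes. A difference of the dye term between organs passed in 0 genes in limma, with 522 at an unadjusted p under 0.05. Values after ± are SDs over arrays, and bare values for 1 gene are fitted contrasts.

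Named genes were, of those with a symbol, the 12 highest and 12 lowest contrasts called on all 8 arrays without overlap, called members of each list and of small families, the 6 widest called opposite changes each way, and named genes at a limit. BETA-VPE and other genes outside the lists came in by the first part of this rule. The comparison, the lists and the members were chosen with earlier results of these data known, and the families after the values were seen. List members were found by symbol, and 4 (CHI, FDH, PGM and RPS13) were left out after their values had been seen, because the gene table gives the locus another product than the list meant or leaves it open. Signal over background and promoter or protein sequences were not analysed here, and 4 arrays per organ limit the precision.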

Additional observations from a re-analysis of the deposited data

Results flagged for a closer look

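The 136 genes chosen for naming are not all described above. Of these, 36 were called in the contrast and lay on opposite sides of 0 in the 2 organs on all 8 arrays. A called contrast was a condition of this list, and wide or opposite contrasts were part of the rule that chose the named genes. Among all genes measured on all 8 arrays, 657 (7.13%) lay on opposite sides of 0. Above 0 in petal and below 0 in cotyledon were BCAT4 (contrast 6.64), UGT72E1 (5.07), OCT5 (5.05), GLR2.7 (4.35), BGLU44 (4.12), CML41 (3.97), UGT73C1 (3.96), CER26 (3.89), EXLB1 (3.29), UGT74B1 (2.86), TBL37 (2.25), scpl42 (2.03), PWD (1.81) and TET10 (1.61). Below 0 in petal and above 0 in cotyledon were ADPG1 (-5.51), SAG29 (-5.45), UPB1 (-5.18), CML23 (-4.56), GH9C2 (-4.19), WAG2 (-3.66), AGL66 (-3.63), UGT71D1 (-3.51), scpl48 (-3.41), GSTU26 (-3.28), SWEET1 (-3.25), scpl40 (-3.21), IQD19 (-3.16), AGL29 (-3.14), GH3.17 (-3.07), AMY1 (-3.04), GSTF4 (-2.79), APL3 (-2.13), TET5 (-2.03), WRKY6 (-1.84), ALDH3F1 (-1.51) and SEC1B (-0.79).

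In 13 of 267 groups of 4 arrays, 1 array stood apart from the other 3 by Dixon's criterion, which chance meets in about 1 group of 20. Cotyledon replicate 1 was apart for TBL37 (-1.68, others -1.10 to -1.05), ALDH2C4 (-2.02, others -1.59 to -1.53), AUR2 (3.56, others 2.47 to 2.61) and GH9C2 (3.96, others 2.27 to 2.56). Cotyledon replicate 2 was apart for BCAT4 (-4.52, others -3.81 to -3.66), XTH32 (0.12, others -1.07 to -0.87) and MYC4 (0.39, others -0.12 to -0.04), and cotyledon replicate 4 for ALDH10A8 (-0.29, others 0.24 to 0.26). Petal replicate 1 was apart for BGLU44 (3.45, others 2.43 to 2.55) and HEME1 (-1.01, others -0.67 to -0.61). Replicate 3 had the most values at the upper limit in both organs, 5.94% of probes in cotyledon and 1.20% in petal, and the deposited median of cotyledon replicate 3 was 0.29, the only one of the 8 above 0.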

How the results depend on the processing

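In all, 24 alternative settings were run, 21 of them planned and 3 chosen after seeing the data (petal replicates 1 and 2 left out, and each dye alone, with 2 arrays per organ). No gene was called in the opposite direction under any of them, and 56 of 124 called named genes kept their call in every setting. Of the 68 that lost it, 34 did so only with 1 dye. Leaving out 1 array at a time gave 3787 to 4798 called genes. The share of tested genes raised in both organs but less in petal was 1.72% and ran from 1.05% to 1.45% over these fits. With limited values kept, 3695 of 13509 genes were called and 5219 were lowered in petal. Of all genes tested, 1.59% were then raised in petal and lowered in cotyledon, 1.78% the reverse, 6.54% raised in both and further in petal and 0.79% raised in both and less. With 2 or more values required per organ the last share was 1.04%. Centred on all deposited values, 3333 were called, with 1063 lower in petal, 2211 lowered in petal callus, 1.92% lowered in petal and raised in cotyledon, and 0.75% raised in both but less in petal. With a common spread, 4.61% were raised in both and further in petal and 3.32% less.

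With callus in Cy5 alone, 668 genes were higher and 694 lower, the opposite changes took 1.14% (petal raised) and 1.43% (petal lowered), and 1.29% and 0.20% were raised in both organs and further or less in petal. With callus in Cy3 alone, 1427 were higher and 1060 lower, and 4.196% and 0.56% were raised further or less. Fewer arrays enter these fits. The difference in spread between organs lost its exact permutation p under 0.05 over all measured values (0.26, p = 0.0857).

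Signs turned for CYP71B21 (-0.27) and CYP71B26 (-0.25) with limited values kept, CML43 (-0.14), HTB2 (-0.12) and XTH20 (-0.52) with a common spread, and ALDH7B4 (-0.22) with Cy3 alone. GLR1.4 ran from -2.22 to 0.045 with single arrays left out, above 0 without petal replicate 2, and was at 0.79 without petal replicates 1 and 2. The contrasts of CML42 and XTH16 were near 0, and CML42 was at -0.047 when centred on tested probes, -0.60 with array weights, -0.072 with Cy3 alone and -0.38 to 0.39 with single arrays left out. XTH16 was at 0.24 centred on all deposited values, 0.22 without petal replicates 1 and 2, 0.00016 with Cy5 alone and -0.14 to 0.11 with single arrays left out. The cause of these shifts was not tested.

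The replicate block gave 4291 called genes. Deviations of same-numbered arrays from the mean of their organ and dye correlated at 0.072 (replicates 1 and 3) and -0.030 (replicates 2 and 4). With 2 arrays per organ and dye, these deviations mirror each other, so they cannot decide whether same-numbered arrays pair. From the organ mean alone, which shares the dye, r was 0.15 to 0.28. There, petal replicates 1 and 3 correlated best with their own number in cotyledon, and petal replicates 2 and 4 with the other number.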

Other observations

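Genes without a symbol held some of the widest contrasts and are named here after their values were seen: AT1G29660 (contrast 5.52), AT3G10720 (5.18) and AT1G62290 (5.14) were higher in petal, and AT1G62270 (-6.01), AT5G50830 (-5.87) and AT1G70680 (-5.68) lower.

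Neighbouring genes were taken from the TAIR10.1 table. Of 3829 adjacent pairs with both genes tested, 841 had both called, 493 of them in the same direction (58.6%), against 52.5% if signs were drawn at the called shares, and the contrasts of neighbours correlated with r = 0.089 across pairs. In 10 pairs both contrasts were at least 3 in size, 8 of these pairs with the same direction. Among the 8 were AtS40-3 and XTH29 (-3.73 and -3.72) and AMY1 and SWEET14 (-3.04 and -3.32, the latter call lost without petal replicate 1, 2 or 3). AT1G29640 (-4.40) and AT1G29660 (5.52) were adjacent with opposite signs.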
